A study of Mus musculus with 73 samples.

Results

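The FoxA sites described here had almost no DNA methylation in control mouse liver. They are the sites of the deposited whole-genome bisulfite sequencing (WGBS) table whose mean level in the 2 libraries without Cre was below 5% and that were absent from the deposited list of hyper-methylated sites. This rule found 7522 members among 33302 sites, or 22.6%, each 400 bp long. It used the control levels directly, and a site is on the list exactly where its developmental null mean is over 20 points above its control mean, so WGBS levels of controls and developmental nulls chose the members and are given below without a test. Of 7631 sites below 5%, 109 were on the list and were left out.

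FoxA1, FoxA2 and FoxA3 are forkhead transcription factors that bind DNA within nucleosomes, open chromatin in the developing liver and keep hepatocyte enhancers accessible. Methylation of cytosine in CpG pairs is low at active enhancers and promoters and high over most of the rest of a mammalian genome. HNF6 (Onecut1) is a homeodomain factor of hepatocytes and bile ducts that shares many liver enhancers with FoxA proteins. Bisulfite turns unmethylated cytosine into a base read as thymine, so the level of a site is the share of reads that still show cytosine; reduced representation bisulfite sequencing (RRBS) applies this to CpG-rich fragments only.

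The WGBS and HNF6 libraries came from 8-week-old mice with loxP-flanked Foxa1L/L;2L/L alleles. The developmental nulls also carried Alfp Cre, which acts in the embryonic liver, and the adult nulls were injected with AAV8 carrying Cre under the hepatocyte-specific Tbg promoter, 1 month before sampling; WGBS had 2 libraries a group, and HNF6 had 3 control, 2 developmental null and 2 adult null libraries. Hepatocytes were enriched on a percoll gradient, per the labels, and each level averages over all cells of the preparation. The RRBS age series held 1 control and 1 developmental null library per age (20 days, 8 weeks, 4 months, 6 months). RRBS also covered 3 null and 3 control livers 7 days after induction of Cre or GFP (age 9 weeks) and 2 and 2 at 13 days (age 12 weeks), in which nulls and controls alike had FoxA1L/L;FoxA2L/L;FoxA3-/- alleles, so that the controls lacked Foxa3 and the nulls all 3 genes. Adult double nulls after partial hepatectomy (3 libraries) had 2 controls given AAV GFP and the same operation, at 12 weeks. Livers of FoxA1L/L;FoxA2L/+ and FoxA1L/+;FoxA2L/+ mice depleted in development (8 weeks, 2 libraries each) kept 1 Foxa2 allele, or 1 allele of each gene. Nothing in the labels says which libraries share a litter, and the p-values below measure only the spread between these libraries.

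Coverage is not given with the methylation tables, and the depth of each value is unknown. The 27 RRBS libraries had values at 445198 to 622668 tiles of 100 bp, and 2444 to 3175 of those lay wholly inside members in each library. The 8 age series libraries stood apart at sparsely methylated DNA: over tiles measured in all 27, more than 2000 bp from any FoxA site and with a mean level below 10%, their mean was 3.45% to 4.13%, against 1.37% to 1.93% in the other 19. Members share sequence with each other: 3556 of them (47.3%) overlapped another FoxA site, and all of them lay in 5998 separate regions. No genome of the files' mm9 build was used here, so sites are named by their mm9 position and no gene or sequence is assigned to them.

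In WGBS the members stayed close to unmethylated in all 6 genomes. Their mean level was 2.11% in control 1 and 2.96% in control 2 (2.54% ± 0.604, SD, n = 2). It was 3.69% and 3.49% in the developmental nulls (3.59% ± 0.138, SD, n = 2) and 2.28% and 2.78% in the adult nulls (2.53% ± 0.351, SD, n = 2). Both developmental nulls lay above both controls, while the adult nulls fell between the 2 controls. The rule itself held the controls low: when control 1 alone chose the sites, control 2 read 5.26% and lay above both developmental nulls (4.53% and 4.38%), and when control 2 alone chose them, control 1 read 3.19% and the developmental nulls 3.6% and 3.48%. The mean hides a skew, since the median member was at 2.5% and 2.32% in the developmental nulls, the 95th percentile was 11.5% and 11.3% there, against 5.56% and 7.14% in the controls, and the highest members were at 30.8% and 30.9%, against 9.68% and 9.94%. The 1041 members on chromosomes 1 and 2 had no value in the adult table, and on the other 6481 the controls read 2.09% and 2.96% and the developmental nulls 3.63% and 3.43%.

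**Figure D1:**
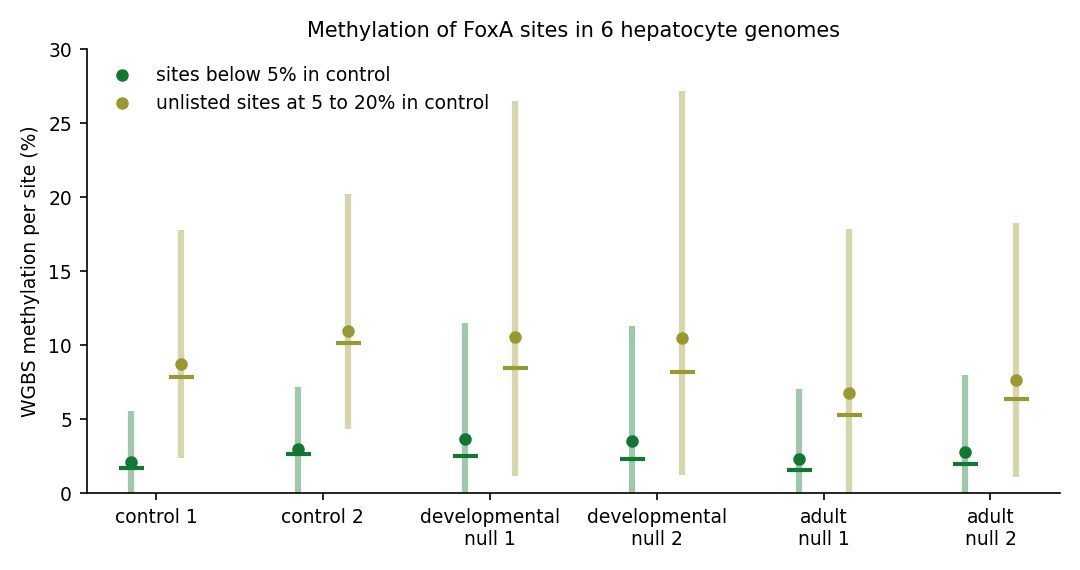
WGBS methylation per FoxA site (percent, vertical axis) in each of the 6 libraries; dots are means, dashes medians and bars the range from the 5th to the 95th percentile of sites. The members (green) had means from 2.11% to 3.69%, and their 95th percentile was highest, at 11.5%, in a developmental null; unlisted sites at 5 to 20% in control are shown beside them.

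Most single members lay within 5 points of their control mean. In the developmental nulls 6849 members (91.1%) did so, 673 (8.95%) were more than 5 points above it and 185 (2.46%) more than 10 points above. A control level under 5% leaves no room for a loss of that size. The rule also left out developmental gains over 20 points, but set no such limit on the adult nulls. With list sites kept, the developmental nulls read 3.99% and 3.83% on the sites of both tables, against 3.63% and 3.43% for members. In the adult nulls 6351 of 6481 members (98%) lay within 5 points, 130 were more than 5 points above and 11 more than 10 points above. For scale, the 2 control libraries differed from each other by more than 5 points at 640 members in which control 2 was higher and at 142 in which control 1 was higher. The share with a gain over 5 points in the developmental nulls went from 3.8% of the 1658 members below 1% in control to 11.6% of the 1689 members at 4 to 5%.

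A small set was partly methylated in both developmental nulls. There were 211 such members above 10% in both libraries, in 188 separate regions, with mean levels of 15.5% and 16.1% in the nulls and 2.83% and 4.35% in the controls. The 173 of them with adult values read 5.12% and 5.84% in the adult nulls. Only 11 members were above 10% in both adult nulls and 4 were above it in all 4 nulls, among the 6481 members of both tables. At the other end, 3570 members (47.5%) were at or below 5% in every library with a value, and 41 were at 0% in all of them.

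The highest developmental null mean was at chr5:146604662-146605061, which read 2.63% and 7.14% in the controls, 26.1% and 23.3% in the developmental nulls and 13.9% and 2.63% in the adult nulls. At chr10:80851069-80851468 the controls read 4.72% and 4.49%, the developmental nulls 18.1% and 30.9% and the adult nulls 12% and 16%. The site chr12:70915305-70915704 read 3.91% and 5.67%, then 28% and 20.6%, then 13.6% and 15.6%; it was among the 5 highest members in both kinds of null, and each of its 4 null libraries lay above both controls. The remaining members of the top 5 were chr1:34456461-34456860 with 25.9% and 21% in the developmental nulls, and chr8:47973856-47974255 with 26% and 20.4% there and 0% and 2.6% in the adult nulls.

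Of the 5 members highest in the adult nulls, 3 were near their control level in the developmental nulls. The highest, chr11:80197873-80198272, was at 0% in both controls, 5% and 4% in the developmental nulls and 31.6% and 9.68% in the adult nulls, so that 1 adult library carried most of the difference. The next, chr17:14310496-14310895, read 2.33% and 0% in the controls, 18.8% and 16.2% in the developmental nulls and 11.5% and 23.3% in the adult nulls. At chr13:31632797-31633196 the adult nulls read 17.9% and 13.9%, and the developmental nulls 3.33% and 5.71%; the controls were at 0% and 8.51%. At chr9:55137519-55137918 the adult nulls read 10% and 20.7%, the developmental nulls 4% and 3.7% and the controls 0% and 5.26%.

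The edges of the rule cut through a continuum. The 3 members just under the control threshold had control means of 4.998% and developmental null means from 3.07% to 6.78%, and the 3 sites just over it, at exactly 5%, had developmental null means from 7.35% to 11.4%. The member nearest to the list's limit, chr6:122086423-122086822, was at 0% in both controls and 25% and 14.8% in the developmental nulls, a difference of 19.9 points. The nearest sites kept out by the list differed by 20.1 and 20.2 points.

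RRBS gave a readout that the rule had not used, but for few members: 1963 of 7522 (26.1%) contained at least 1 whole tile, against 7% of listed sites and 11.7% of unlisted sites at 5 to 20% in control. The members that RRBS reached were less methylated on average, since in WGBS they read 2.24% and 2.05% in the developmental nulls, against 4.2% and 4% in the 5559 members without a tile. A gain over 5 points was seen in 3.01% of the former and 11.1% of the latter. Each RRBS statement on members is therefore about a part with lower mean WGBS levels than the rest.

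In the age series, loss of Foxa1 and Foxa2 during development left the mean level of member tiles within the spread between libraries. Over 2198 member tiles the controls read, from the youngest to the oldest (20 days, 8 weeks, 4 months, 6 months), 3.58%, 3.49%, 2.8% and 2.72%. The developmental nulls read 3.61%, 3.27%, 2.68% and 3.11% in the same order. The groups overlapped, with means of 3.15% ± 0.451 (SD, n = 4) in controls and 3.17% ± 0.386 (SD, n = 4) in nulls, a difference of 0.0154 points (two-sided exact permutation test, p = 0.971, Benjamini-Hochberg adjusted over 6 comparisons 1, smallest possible p 0.0286). Tiles of listed sites read 26.4% ± 9.98 in controls and 47.6% ± 5.1 in nulls over 100 tiles, without overlap. The list was itself chosen on the developmental null gain, so the contrast with it is given without a test. Against all other unlisted sites, the member difference was -1.7 points, and between -3.48 and -0.45 points with any 1 library left out (two-sided exact permutation of the difference per library, p = 0.429). Both sides of this contrast had sites with WGBS developmental gains over 20 points left out. The test therefore compares only sites already limited in gain, and no conclusion is drawn from it.

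Few member tiles passed the tile-by-tile test of limma, a moderated test fitted on all tiles at an adjusted p below 0.05. In the age series 8 of 2198 member tiles rose and 4 fell, or 0.364% and 0.182%, beside 0.176% and 0.0625% of all 369462 tiles. The median difference was 0.0831 points over member tiles and 0.28 points over all tiles. With the spread taken from the age series alone, no member tile passed. Leaving out 1 library gave between 12 and 19 calls, with 19 both without the control of 6 months and without the null of 4 months.

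The 2 member tiles with the largest rises lay in members that WGBS also read higher in the developmental nulls. At chr4:105616901-105617000 the controls read 6.72%, 6.88%, 11% and 11.4% from 20 days to 6 months and the nulls 31.6%, 15.7%, 22.2% and 24.1%, a difference of 14.5 points (SE 2.61, limma adjusted p = 0.0183). Every null lay above every control, and its WGBS site chr4:105616652-105617051 read 3.97% and 3.91% in controls, 16.3% and 15.5% in developmental nulls and 1.65% and 4% in adult nulls. At chr12:58635801-58635900 the controls lay between 0% and 8.33% and the nulls between 9.52% and 19.3%, a difference of 10.3 points (SE 2.08, limma adjusted p = 0.0377). The WGBS site around it, chr12:58635723-58636122, read 0.748% and 0.637% in controls, 20.7% and 11.1% in developmental nulls and 2.45% and 2% in adult nulls.

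The next risers did not share this. The tile chr2:128793901-128794000 differed by 7.1 points (limma adjusted p = 0.0377), with controls from 0% to 3.85% and nulls from 4.55% to 14.3%, while its site read 0.935% and 0.929% in WGBS controls and 0% and 0.425% in developmental nulls. The tile chr8:93657301-93657400 was at 0% in all 4 controls and at 2.7% to 6.9% in the nulls (limma adjusted p = 0.0219). The 4 tiles that fell lay on chromosomes 4, 8, 15 and 16 and had differences from -4.86 to -2.18 points; at 2 of them all 4 nulls were at 0%, and in WGBS their sites differed by less than 1 point.

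Members with a WGBS gain were too rarely covered by RRBS to follow as a group. The 2173 tiles in members with a gain up to 5 points read 3.09% ± 0.425 in controls and 3.08% ± 0.373 in nulls (SD, n = 4 each). The 25 tiles in 17 members with a gain over 5 points read 12.3%, 8.12%, 6.34% and 5.29% in the controls from 20 days to 6 months and 14.5%, 9.65%, 10.4% and 6.55% in the nulls, so the null was higher at each of the 4 ages and the groups overlapped across ages. The 13 tiles in 8 members above 10% in both WGBS nulls read 4.73% to 7.95% in controls and 7.94% to 15.3% in nulls. These sets were chosen on WGBS levels and are given without a test.

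After acute deletion of Foxa1 and Foxa2 in adult livers that, like their controls, lacked Foxa3, the mean level of member tiles was lower. At 7 days after induction the 3 nulls read 0.855%, 0.732% and 0.92% over 2392 member tiles, and the 3 controls 1.37%, 1.39% and 1.45%. The groups did not overlap, and the nulls' mean of 0.836% ± 0.0956 (SD, n = 3) lay below the controls' 1.4% ± 0.0413 (SD, n = 3). The difference was -0.565 points, or -40.3% of the control mean. Its size depended on which sites counted as members and on the more methylated tiles: it was -0.152 points at a control threshold of 2%, -1.18 points at 10%, and -0.0942 points for the median over tiles, where the groups overlapped (two-sided exact permutation p = 1). With 3 libraries against 3, the two-sided exact permutation p cannot go below 0.1, which is the value found (adjusted over the 6 comparisons, 0.267). Tiles of unlisted sites at 5 to 20% in control were lower by a like proportion, from 8.55% ± 0.236 in controls to 5.22% ± 0.925 in nulls over 1097 tiles, also without overlap. Tiles of listed sites read 28.4% ± 0.206 and 27.9% ± 1.46 and overlapped. Sparsely methylated tiles far from FoxA sites were lower as well, at 1.52% ± 0.0637 in nulls against 1.68% ± 0.0614 in controls, or -9.59%. With these tiles subtracted in each library, the member difference was -0.403 points. All distant tiles together read 62% in nulls and 61.7% in controls, and the groups overlapped.

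At 13 days after induction the direction was the same. The 2 nulls read 1.01% and 0.814% over 2634 member tiles and the 2 controls 1.37% and 1.16%, again without overlap. The difference was -0.352 points, or -27.9% of the control mean (two-sided exact permutation p = 0.333, the smallest possible with 2 against 2). Distant low tiles differed by -11.3% there, and with them subtracted the member difference was -0.153 points and the groups overlapped (exact permutation p = 0.667). It was -0.144 points at a control threshold of 2%, -0.801 points at 10% and 0 for the median over tiles. Before any subtraction, each of the 5 triple null libraries of the 2 days lay below every control of its day. In the hepatectomy experiment, whose labels name a deletion of Foxa1 and Foxa2 only, the 3 nulls read 1.59%, 1.65% and 1.79% and the 2 controls 1.88% and 1.47%, so the nulls lay between the controls (exact permutation p = 1, smallest possible 0.2).

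**Figure D2:**
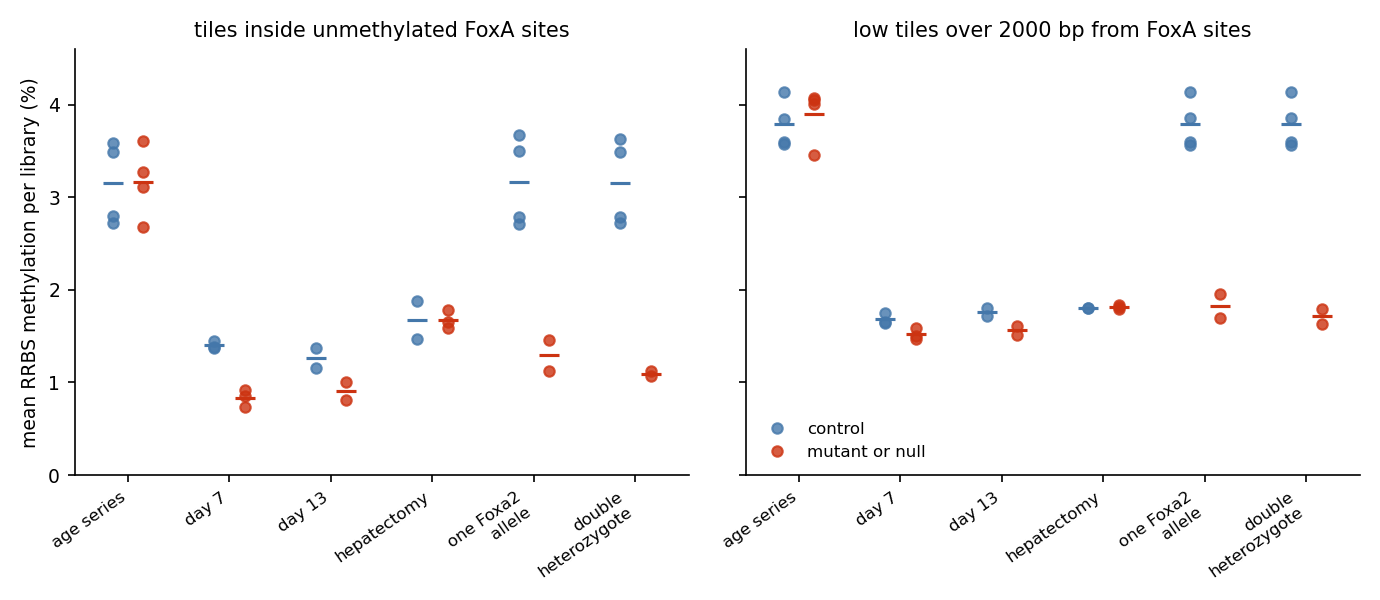
Mean RRBS methylation (percent) of each library, as dots with the group mean as a line, over tiles inside members (left) and over sparsely methylated tiles more than 2000 bp from FoxA sites (right), for 6 comparisons; the age series controls appear 3 times, each time on the tiles of that comparison. At days 7 and 13 the nulls lie below the controls on the left (0.836% against 1.4% at day 7), and on the right the age series libraries stand above all others, whose range over the tiles measured in all 27 was 1.37% to 1.93%.

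The lower level at day 7 was found in each subset of member tiles looked at, and its size went with the level itself. Over member tiles measured at both days and grouped by the day 13 controls, which took no part in the day 7 comparison, the 737 member tiles at 0% read 0.757% ± 0.0475 in day 7 controls and 0.522% ± 0.0498 in nulls. The 167 tiles above 5% read 6.44% ± 0.216 and 3.17% ± 1.04. Grouped by WGBS, the 1832 tiles in members below 2% in control read 0.702% ± 0.0309 and 0.546% ± 0.0136, and the 533 tiles in members at 2 to 5% read 3.73% ± 0.168 and 1.8% ± 0.459. Members that overlap another FoxA site had the largest difference by distance, 2.19% against 1.1% over 492 tiles, and those more than 20000 bp from the next site read 1.18% and 0.801% over 653 tiles. In none of these subsets did the 3 nulls overlap the 3 controls.

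No single member tile passed limma at day 7. The counts of 0 risen and 0 fallen stand beside 0.00125% and 0.00291% of all 480615 tiles. At an unadjusted limma p below 0.05, 68 of 2392 member tiles were lower and 11 higher, beside 8633 lower and 11070 higher of all 480615 tiles. Counted by overlap alone, the 3 nulls lay below the 3 controls at 142 of 2392 member tiles (5.94%), beside 4.55% of all tiles, and above them at 27 (1.13%), beside 5.11% of all tiles. At 373 member tiles (15.6%) all 6 libraries read 0%. The share of tiles lower without overlap was close to that of all tiles, and the share higher without overlap was below it; among distant low tiles the shares were 4.99% and 3.06%.

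At day 13, 1 member tile of 2634 rose and 1 fell, beside 0.00271% and 0.00475% of all tiles. At chr8:108130201-108130300 both controls were at 0% and the nulls at 7.14% and 6.67% (SE 0.631, limma adjusted p = 0.00394). At chr13:40955101-40955200 the controls were at 10% and 14.3% and both nulls at 0% (SE 1.74, limma adjusted p = 0.0358). Leaving out 1 library gave 9 calls without control 2, 5 without null 2, 4 without control 1 and 3 without null 1. In WGBS the sites around both tiles were at or below 1.94% in controls and at or below 1.02% in developmental nulls. With the spread taken from the day 13 groups alone, neither tile passed, and the depth behind their values is unknown. After hepatectomy 0 of 2519 member tiles rose and 0 fell, beside 0.00104% and 0.000828% of all tiles. At an unadjusted limma p below 0.05, 26 of the 2519 were higher and 54 lower, beside 11424 higher and 11105 lower of all 482859 tiles. Without hepatectomy control 1 limma called 3 member tiles and without control 2 it called 6, all lower in nulls.

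Seen from the centre of the members outwards, RRBS tiles formed a trough. In day 7 controls tiles within 200 bp of a member's centre read 1.3% ± 0.053, those at 200 to 500 bp 2.8% ± 0.0212, those at 500 to 1000 bp 6.68% ± 0.0484, those at 1000 to 2000 bp 17.3% ± 0.112 and those at 5000 to 10000 bp 51.1% ± 0.33 (SD, n = 3). The day 7 nulls read 0.832% ± 0.0802, 2.57% ± 0.091, 6.58% ± 0.0588, 17.2% ± 0.0882 and 51.3% ± 0.345 at the same distances. The nulls lay below the controls most clearly at the centre, and at 5000 to 10000 bp their mean was above that of the controls. Unlisted sites at 5 to 20% lay in a narrower trough, at 9.34% ± 0.214 within 200 bp and already 21.9% ± 0.0758 at 200 to 500 bp in day 7 controls. The age series kept the trough in both groups: the developmental nulls read 3.28% ± 0.454 within 200 bp and 20.3% ± 0.672 at 1000 to 2000 bp, and the controls 3.17% ± 0.498 and 19.7% ± 0.882 (SD, n = 4).

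**Figure D3:**
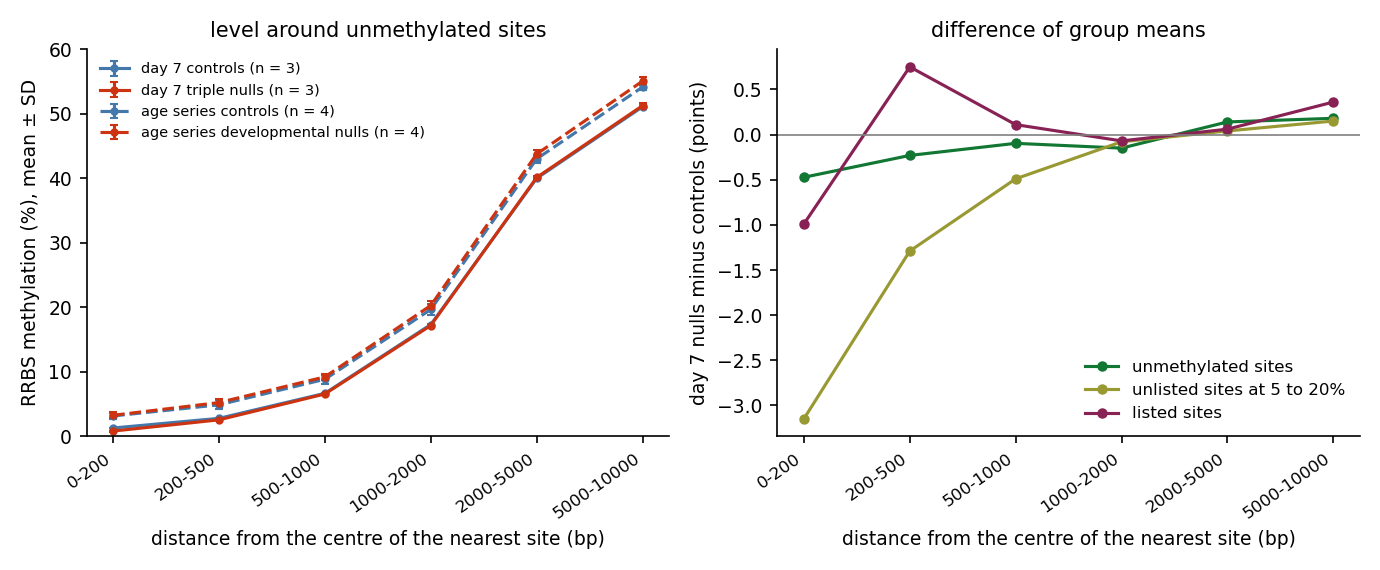
Left, RRBS methylation (percent, mean ± SD over libraries) against the distance of a tile from the centre of its nearest FoxA site, for tiles whose nearest site is a member, in the day 7 and age series groups. Right, day 7 nulls minus controls (points) for tiles nearest to members, to unlisted sites at 5 to 20% and to listed sites; around members the null and control means were 0.832% and 1.3% at 0 to 200 bp and 6.58% and 6.68% at 500 to 1000 bp.

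Livers that kept 1 Foxa2 allele, or 1 allele of Foxa1 and Foxa2 each, had low member levels, but their only controls came from the age series. The FoxA1L/L;FoxA2L/+ libraries read 1.46% and 1.13% over 2314 member tiles and the FoxA1L/+;FoxA2L/+ libraries 1.12% and 1.07% over 2315, against 2.71% to 3.67% in the 4 age series controls. The differences were -1.87 and -2.06 points (two-sided exact permutation p = 0.133 for both, the smallest possible, adjusted 0.267). Distant low tiles differed by nearly the same amount, 1.82% and 1.72% against 3.79%, so the genotype and the experiment cannot be told apart. With the distant tiles subtracted, the member differences were 0.0943 and 0.0107 points.

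The tile-by-tile counts of these livers carry the same limit. In FoxA1L/L;FoxA2L/+ livers 292 member tiles fell and 1 rose, or 12.6% and 0.0432%, beside 5.9% and 0.106% of all tiles. In FoxA1L/+;FoxA2L/+ livers 284 fell and 4 rose, or 12.3% and 0.173%, beside 5.97% and 0.12% of all tiles. Both comparisons share the 4 controls. The tile chr17:80952701-80952800, for example, read 9.43% to 17.5% in the age series controls, 2.11% and 0% in FoxA1L/L;FoxA2L/+ livers and 1.27% and 1% in FoxA1L/+;FoxA2L/+ livers, while the WGBS controls read 0.696% and 0.276% at its site. Left with 1 mutant library, limma called 26 and 29 member tiles in the first comparison and 23 and 15 in the second, and with the spread of the groups compared alone it called none.

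HNF6 peaks lay at a minority of the members in every deposited list. A peak overlapped 649 members (8.63%) in control 1, 563 (7.48%) in control 2 and 160 (2.13%) in control 3. The developmental null lists had 147 (1.95%) and 70 (0.931%), and the adult null lists 517 (6.87%) and 722 (9.6%). The Wilson 95% intervals, which cover counting error only, ran for example from 8.01% to 9.28% in control 1 and from 0.737% to 1.17% in developmental null 2. No list had a peak at 6624 members (88.1%), beside 89.5% of the other FoxA sites, and all 7 lists had one at 41 members (0.545%), beside 0.566% of the other sites; both shares were near those of FoxA sites in general. Across the 7 lists the share at members exceeded that at all other FoxA sites by 0.667 points, in 6 of 7 lists (two-sided exact sign-flip permutation test over lists, p = 0.0312, smallest possible 0.0156). This was 0.237 points with equal numbers of peaks and 1.47 points with overlapping sites joined, and the exact permutation p was 0.0625 on leaving out any list other than developmental null 2. All lists were scored on the same sites and shared many peaks. The p therefore describes only how alike the lists were, not the uncertainty of members against other sites. The higher share at members was not shared by crowded sites: among those with the next site under 400 bp away, members had a lower share than other sites in each of the 7 lists, for example 11% against 12.5% in control 1. At 400 to 1000 bp members were also lower in every control and adult list, for example 5.35% against 7.13% in control 1. Both developmental null lists were slightly higher there, at 1.21% against 1.12% and 0.518% against 0.479%. At 1000 to 5000 bp control 1 had 7.54% at members against 5.58%. The unlisted sites at 5 to 20% had a higher share than the members in each of the 7 lists, for example 11.6% in control 1 and 1.64% in developmental null 2, and the listed sites a lower one, 3.77% and 0.111%.

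By point value, the developmental null lists lay below all control lists, and the adult lists did not. Control 3 was at 2.13% (Wilson interval 1.8% to 2.5%) and developmental null 1 at 1.95% (1.7% to 2.3%), so their intervals overlapped. Control 3 had a median peak width of 84 bp, against 87 and 82 bp in developmental nulls and 150 and 131 bp in controls 1 and 2. On chromosomes without a FoxA site it had 45.5% of its peaks. The developmental nulls had 56% and 45.3% there, against 13.9% and 17% in controls 1 and 2. The mean share of members was 6.08% ± 3.47 (SD, n = 3) in controls, 1.44% ± 0.724 (SD, n = 2) in developmental nulls and 8.24% ± 1.93 (SD, n = 2) in adult nulls. The developmental null minus control difference of -4.64 points had a two-sided exact permutation p of 0.2, the smallest that 3 against 2 allows, and the adult difference of 2.16 points a p of 0.6. The lists differ in length and quality: on the 19 chromosomes of the site table they held 4963, 3863 and 965 peaks in controls, 1373 and 650 in developmental nulls and 3377 and 5195 in adult nulls. With 650 top-scoring peaks of each list the shares were 2.19%, 1.91% and 1.32% in controls, 1.02% and 0.931% in developmental nulls and 1.82% and 1.86% in adult nulls. The difference from controls was then -0.831 points for the developmental nulls, still without overlap, and 0.0332 points for the adult nulls. The adult lists came from another version of the peak caller, so caller and genotype cannot be told apart in them.

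**Figure D4:**
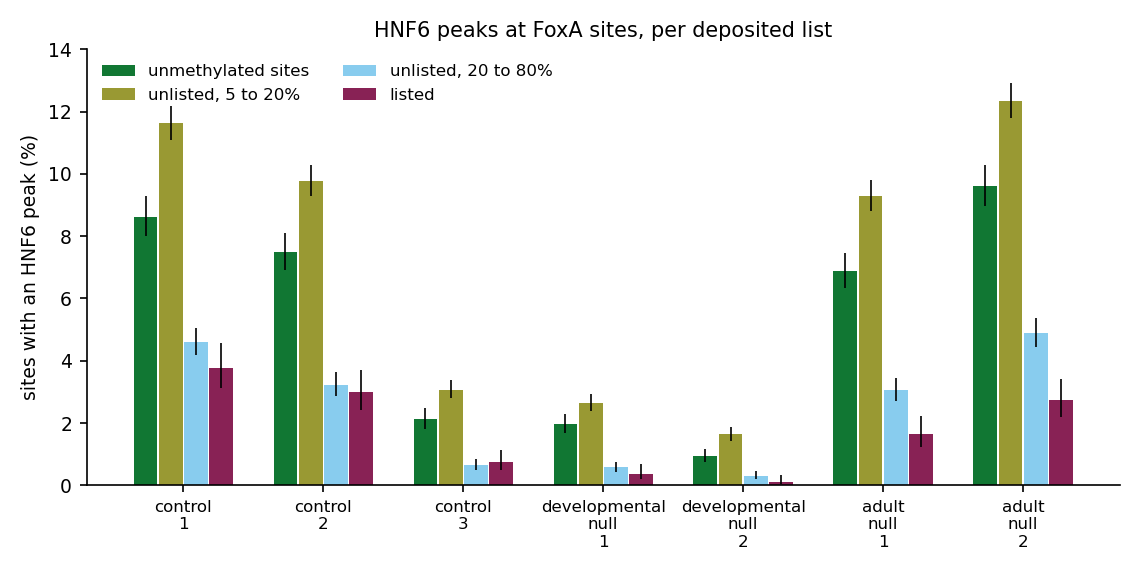
Share of FoxA sites with an HNF6 peak (percent, vertical axis) in each of the 7 deposited lists, by methylation class; bars start at 0 and error bars are Wilson 95% intervals. Members reached 9.6% in adult null 2 and 0.931% in developmental null 2, and unlisted sites at 5 to 20% were higher in every list.

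Where the 3 control lists agreed, fewer of their HNF6 regions at members were found in the developmental null lists than in the adult null lists. Of the regions where every control list had a peak, 74 overlapped members and no other FoxA site. Developmental null 1 had a peak at 35 of them (47.3%, Wilson 95% interval 36.3% to 58.5%) and developmental null 2 at 27 (36.5%, 26.4% to 47.9%), while each adult list had one at 73 (98.7%, 92.7% to 99.8%). The 279 regions with other FoxA sites only were found in 54.8% and 40.1% by the developmental nulls, and the 406 without a FoxA site in 51.7% and 41.9%, with intervals that overlapped those of the members. The adult lists found 94.3% and 96.8% of the former and 95.3% and 97% of the latter. Adult peaks had median widths of 307 and 320 bp, against 82 to 150 bp in the other lists, and came from another caller version. Genotype and peak calling therefore cannot be told apart in this contrast. With peaks in at least 2 control lists the shares were lower, 28.5% and 14.4% in the developmental nulls and 78.7% and 89.9% in the adult nulls.

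Members without an HNF6 peak in the developmental null lists were still sparsely methylated. At 33 of the 74 regions neither developmental null list had a peak, and the 48 members there read 5.36% and 3.83% in the developmental nulls and 2.91% and 3.3% in the controls. The 27 members in the 21 regions found in both lists read 3.81% and 2.65%, against 2.03% and 3.63% in the controls. A gain over 5 points was seen at 6 of the 48 members (12.5%) and at 0 of the 27, beside 8.95% of all members. Gains over 10 points were seen at 1 and 0, beside 2.46% of all members. Over all members, developmental null peaks lay at 1.78% and 1.04% of those with a gain over 5 points. For members with smaller gains the shares were 1.97% and 0.92%. In the 3 control lists the shares were 10.1%, 8.17% and 2.82%, against 8.48%, 7.42% and 2.06% with smaller gains. The regions found in neither list were also the weaker ones in controls, with a median fold enrichment of 10.4 against 16.3, as the authors' caller gave it. These levels are among those that chose the members and are given without a test.

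The 3 members with a peak in all 7 lists and the highest control enrichment were read at or below 5.13% in the nulls measured there. The site chr6:134467197-134467596 had fold enrichments of 34.9, 30.4 and 10.5 in controls, 6.41 and 8.96 in developmental nulls and 31.9 and 44.1 in adult nulls, and its methylation was 1.98% and 7.69% in controls, 2.86% and 3.39% in developmental nulls and 2.8% and 2.54% in adult nulls. The site chr4:11073736-11074135 had 34.9, 28.4 and 12.3, then 12.7 and 4.83, then 33.5 and 56.1, with methylation of 6.75% and 3.19% in controls, 1.7% and 3.06% in developmental nulls and 0.939% and 0% in adult nulls. The site chr1:172537639-172538038 had 34.9, 23.7 and 12.9 in controls and 12.2 and 6.57 in developmental nulls, with methylation of 4.76% and 2.13% and then 5.13% and 2.44%; it has no adult methylation value. Folds of the 2 caller versions are not on one scale.

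By distance to the next FoxA site, counted between centres, the members' methylation varied little. Of the 7522 members, 3556 had their next site less than 400 bp away, 579 at 400 to 1000 bp, 1193 at 1000 to 5000 bp, 1077 at 5000 to 20000 bp and 1117 farther away. The nearest class read 4.01% and 3.84% in the developmental nulls and 2.24% and 3.26% in controls, and the farthest class 3.42% and 3.22% and 1.87% and 2.54%. The classes between them lay from 3.15% to 3.45% in the developmental nulls. A gain over 5 points was seen in 10.1% of the nearest and 9.13% of the farthest members, and in 6.39% of those at 400 to 1000 bp. With overlapping sites joined into regions and distance taken between edges, the nearest class (under 1000 bp) read 3.56% and 3.43% and the farthest 3.63% and 3.45%.

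Unmethylated sites tended to have unmethylated neighbours at short range. Among members whose next site lay at 400 to 1000 bp, where the windows no longer overlap, the next site was a member in 45.3%, against 26.8% for all sites of that distance. The shares were 30.4% and 22.3% at 1000 to 5000 bp, 22.5% and 20.4% at 5000 to 20000 bp, and 21.8% and 21% farther away. A listed site was the neighbour of 20 members at 400 to 1000 bp (3.45%, against 7.24% for all sites). Those 20 members read 3.34% and 5.32% in the developmental nulls, and the 80 members with a listed site at 1000 to 5000 bp read 3.99% and 4.4%, while the 363 with a member there read 2.76% and 2.6%. A gain over 5 points was seen in 13.8% of those 80 and in 5.79% of those 363. Both classes were defined on the same WGBS levels, so this is a description.

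**Figure D5:**
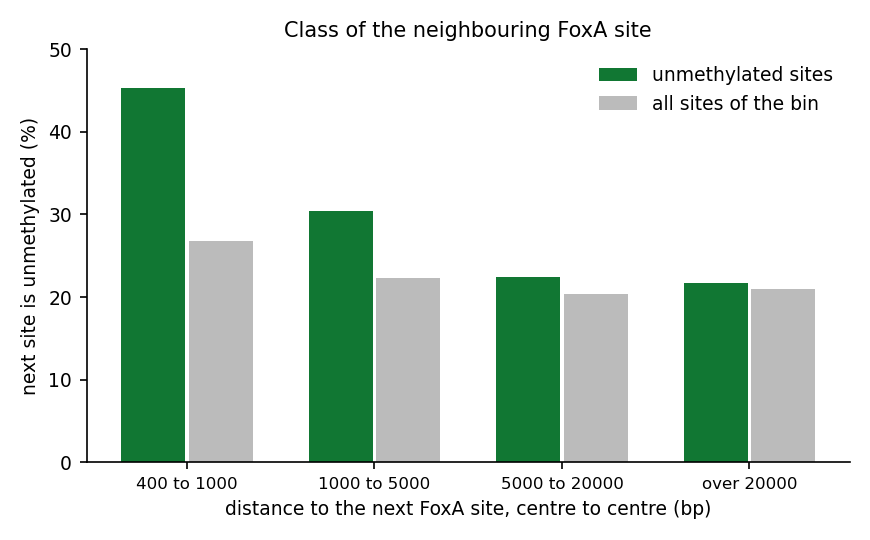
Share of next FoxA sites that are members (percent, vertical axis, bars from 0) by the distance to that site, for members (green) and for all sites of the same distance (grey). The shares differ most at 400 to 1000 bp, 45.3% against 26.8%, and least beyond 20000 bp, 21.8% against 21%.

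HNF6 peaks were more frequent at crowded FoxA sites, members and others alike. In control 1 a peak lay at 11% of the members that overlap another site (Wilson 95% interval 9.98% to 12%), 5.35% at 400 to 1000 bp, 7.54% at 1000 to 5000 bp and 6.09% (4.83% to 7.65%) at those more than 20000 bp away. At the other FoxA sites the share in control 1 went from 12.5% in the nearest class to 4.15% in the farthest. The adult null 2 list gave 11.9% and 6.09% for the nearest and farthest classes, and developmental null 1 gave 2.53% and 1.25%, both for members. Overlapping members share peaks, so these counts are not independent. Members lay on all 19 chromosomes of the table, from 20.4% of the sites on chromosome 9 to 25.8% on chromosome 11. The most crowded regions held 5 members each, and there were 10 of them; the 3 named by the rule were chr13:37806887-37807840, chr13:41321810-41322762 and chr14:70506823-70507554. Their mean levels were 1.85%, 3.95% and 1.46% in controls, 1.55%, 5.56% and 3.2% in developmental nulls and 2.89%, 3.13% and 1.78% in adult nulls.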

How the data were processed

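The authors deposited WGBS levels per 400 bp FoxA site and RRBS levels per 100 bp tile as fractions, made with Trim Galore 0.3.3 and BSMAP 2.74 on mm9, per the submitters' processing notes; they were multiplied by 100. How values were averaged over a site, and any coverage minimum, is not given in those notes. The adult table's column headed as a developmental null held control 2 at all 28654 common sites and was not used, nor were 8 columns of group averages. HNF6 peaks were called per library against input with MACS 2.1.1.20160309 (q below 0.05) or 1.4.3 (adult nulls, p below 1e-05), from 16760874 to 30469386 ChIP tags, per the file headers. The deposited lists give a fold enrichment ratio, −log10 of the p-value, or, from 1.4.3, a score of the same kind; folds describe and scores rank peaks within a list only.

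Member tiles lay wholly inside members and no site of another class. Mean levels per library were compared by two-sided exact permutation tests, adjusted over 6 comparisons, and tiles by limma 3.58.1 in R 4.3.3 with a variance trend, spread from all RRBS groups, tiles measured in every library compared and Benjamini-Hochberg adjustment over all tiles. The fit was tested on simulated data with large changes at mid-range levels only. Recovery of small changes at levels as low as the members' was not tested. Peaks counted at a site when they overlapped it by 1 bp. Named sites are the 5 highest members in each kind of null, those nearest the thresholds, up to 4 called tiles per direction with the largest difference (of the mutant tiles 1 example is given), the 3 members with peaks in all lists and the highest control fold, and the 3 most crowded regions. Members, lists and tests were chosen with earlier results of these data known; splits by level, by WGBS gain and by overlap of day 7 libraries, and leaving out a library or adding a block for the difference against listed tiles and for HNF6 shares, were added after the values were seen.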

Additional observations from a re-analysis of the deposited data

Results flagged for a closer look

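Of 30 sets of 4 libraries examined in the age series, 4 held a library far from the other 3. Chance gives about 1 in 20 for continuous values. A set with 3 libraries at 0% and 1 above it is always flagged, so that rate does not apply to the single tiles named below. The developmental null of 4 months read 3.46% over distant low tiles, below the other 3 nulls, and 2.63% at the member tile chr8:84925501-84925600, where the others were at 0%. The control of 4 months read 3.51% at chr4:147242801-147242900, and the control of 20 days read 6.67% at chr8:96535401-96535500, where the other 3 controls were at 0%. The list of developmental null 1 had 56% of its HNF6 peaks on chromosomes without a FoxA site of the table, above the controls' 13.9%, 17% and 45.5%; developmental null 2 had 45.3%.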

How the results depend on the processing

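The limits are few tiles in members, unknown coverage and small groups. Of 213 recomputed values, 148 were classed as unchanged, and the cause of the others was not tested. For tested differences this meant the same direction and the same side of a p of 0.05. Where the smallest possible p lay above 0.05, the side could not change. For limma calls it meant a count of similar size, for WGBS levels a shift below the SD between libraries. For HNF6 regions it meant a share inside the Wilson interval of the main value. In the age series the member difference of 0.0154 points turned to -0.0146 with sites averaged first, to -0.0943 with distant tiles subtracted and to between -0.131 and 0.179 without 1 library. In the hepatectomy comparison 0.00391 points turned to -0.0118 (threshold 2%), -0.0639 (threshold 10%), -0.0341 (sites averaged first), -0.00577 (distant tiles subtracted) and -0.0511 (replicate block), and to between -0.202 and 0.21 without 1 library. At day 13 the median over tiles gave 0. With distant tiles subtracted, 1 Foxa2 allele gave 0.0943 and the double heterozygote 0.0107. Without 1 library the differences were -0.607 to -0.513 at day 7, -0.46 to -0.245 at day 13, -2.04 to -1.71 for 1 Foxa2 allele, -2.21 to -1.91 for the double heterozygote, -25.9 to -18.8 against listed tiles and -3.48 to -0.45 against other unlisted tiles; for HNF6 they were -6.61 to -3.36 (developmental), 0.18 to 3.52 (adult) and 0.556 to 0.783 (against other sites, p of 0.0625 in 6 of 7).

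Calls of member tiles, 12 in the age series, became 0 with the spread of the 2 groups, 22 on the logit scale and 2 at 10 points or more; at day 7, 0 became 1 on the logit scale; at day 13, 2 became 0 with the spread of the 2 groups and 1 at 10 points; for 1 Foxa2 allele 293 and the double heterozygote 288 became 0 with that spread and 3 and 6 at 10 points. Without 1 library there were 12 to 19, 0 to 0, 3 to 9, 0 to 6 (hepatectomy), 26 to 315 and 15 to 321. Libraries with the same number or age were not paired: deviations of the same-age pairs correlated at 0.06 to 0.366 over all tiles and those of day 7 at -0.00757 to 0.0108. With a replicate block the age series difference was 0.0154 and day 7's -0.565, the difference against listed tiles -21.2 and that against other unlisted tiles -1.7. With 4 pairs an exact p cannot go below 0.125. The difference against listed tiles is given without a test, since the list was chosen on the developmental null gain. The block was tried on calls only together with the spread of the 2 groups, which gave 0 in each of the 4 comparisons with and without it.

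The mean WGBS level of members was 4.45% (developmental) and 3.11% (adult) when control 1 alone chose them, and control 2 then read 5.26%, above the developmental nulls; it was 1.78% and 1.39% at a 2% threshold and 5.55% and 3.78% at a 10% threshold. It lay between 3.49% and 3.69%, and 2.28% and 2.78%, by library. Nearest minus farthest members was 0.602 points, or -0.043 with regions joined. With peaks in at least 2 control lists, 28.5%, 14.4%, 78.7% and 89.9% of regions were found.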
